A study of Mus musculus with 64 samples.

Results

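LEF1 binding was compared between SOX2-ON cells and caudal epiblast-like cells (CEpiLC) in 6 chromatin immunoprecipitation (ChIP-seq) samples, the 3 LEF1 libraries of each condition, of 64 samples in the series. Members were chosen by the antibody and by the condition in their titles, and no measured value took part in the choice. Both conditions came from mouse embryonic stem cells of the XY 129 strain line HM1 and were harvested at 72 h of one differentiation. Cells were held for 2 days in N2B27 medium with bFGF and LGK974, which stops cells from secreting WNT ligands, and CHIR99021, which activates the WNT pathway by blocking GSK3, was then added until day 3. CEpiLC were wild-type cells of the parental line, which carries the doxycycline-responsive activator without the Sox2 transgene, and received no doxycycline. SOX2-ON cells were Sox2-/- cells of the SOX2-TetON line, which carries a doxycycline-driven Sox2 transgene at the Hprt locus and rtTA at Rosa26, kept in doxycycline at 1 µg/ml throughout. The SOX2-TetON line was made by picking clones, and the number of clones used is not given in the sources used here. The level of SOX2, the Sox2-/- transgenic line and doxycycline therefore differ together between the conditions and cannot be told apart by these 6 libraries. The same line without doxycycline (SOX2-OFF) and wild-type cells in 2i medium (naive ESC) provided further LEF1 libraries. They are used below as values and in a test against each other. The files are peak lists with no RNA measurement, so marker expression of the cells could not be checked, and a change in the share of cells with a bound site cannot be told apart from a change in binding per cell.

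LEF1 belongs to the TCF/LEF family, DNA-binding proteins of the high-mobility-group type that recruit β-catenin when the WNT pathway is active. TCF7L1 and TCF7L2 are other members of the family, and TCF7L1 is known mainly as a repressor in pluripotent cells. SOX2, a factor of pluripotent and neural cells, binds DNA through a related domain, and its preferred word resembles that of TCF/LEF factors. In the caudal epiblast, WNT signalling drives genes of the primitive streak, presomitic mesoderm and trunk Hox clusters.

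The differential sites are shown first as sequence. A LEF1 site was called SOX2-ON-only when all 3 SOX2-ON lists and none of the 3 CEpiLC lists held a peak there, CEpiLC-only in the reverse case, and shared when all 6 lists held one. For this purpose each library was shortened to its 4443 peaks of highest deposited −log10 p-value, which is the length of the shortest list. Each sequence below is the upper strand of mm10, 60 bp to either side of the highest LEF1 summit, named by the gene with the nearest protein-coding start or, for Klf2, Six3, Msgn1 and Eomes, by the locus that holds it. Capitals mark 2 motifs on either strand. The TCF motif is CTTTGAA or CTTTGAT, read TTCAAAG or ATCAAAG on the other strand. The SOX motif is CTTTGT or CATTGT, read ACAAAG or ACAATG on the other strand. Both motifs can begin with CTTTG, but no single position on a strand can match both, because the next letter differs. The first 4 SOX2-ON-only sites are those of highest fold among sites without a peak in any full-length CEpiLC list. The last 2 lie in loci of known developmental regulators.
Pax9 site, chr12:56887476-56887596: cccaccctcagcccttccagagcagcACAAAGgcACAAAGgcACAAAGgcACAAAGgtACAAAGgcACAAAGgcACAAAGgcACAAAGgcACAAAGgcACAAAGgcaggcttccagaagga
Ahr site, chr12:35642677-35642797: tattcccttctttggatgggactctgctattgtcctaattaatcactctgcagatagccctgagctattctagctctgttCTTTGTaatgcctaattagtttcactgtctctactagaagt
Rcn1 site, chr2:105397889-105398009: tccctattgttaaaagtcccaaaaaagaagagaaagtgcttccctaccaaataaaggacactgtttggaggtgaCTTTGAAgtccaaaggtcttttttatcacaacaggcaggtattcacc
B3galt2 site, chr1:142234294-142234414: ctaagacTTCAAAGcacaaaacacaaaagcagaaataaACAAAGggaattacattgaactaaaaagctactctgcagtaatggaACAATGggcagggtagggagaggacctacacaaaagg
Klf2 site, chr8:72316169-72316289: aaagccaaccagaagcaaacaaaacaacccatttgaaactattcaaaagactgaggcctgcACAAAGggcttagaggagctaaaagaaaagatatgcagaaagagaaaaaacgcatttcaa
Six3 site, chr17:85605805-85605925: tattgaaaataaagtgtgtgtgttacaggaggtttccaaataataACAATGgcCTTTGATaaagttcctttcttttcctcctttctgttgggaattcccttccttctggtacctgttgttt

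The Pax9 site, the strongest of these SOX2-ON-only sites, held 10 SOX motifs in a tandem array and no TCF motif. The array spaced the motifs 8 bases apart, from base 27 to base 99 of the window. The Six3 site held 1 SOX and 1 TCF motif side by side near its centre, with the TCF motif starting at base 54. The CEpiLC-only sites of highest fold without a peak in any full-length SOX2-ON list follow, again with 2 sites from developmental loci.
Gpr39 site, chr1:125709786-125709906: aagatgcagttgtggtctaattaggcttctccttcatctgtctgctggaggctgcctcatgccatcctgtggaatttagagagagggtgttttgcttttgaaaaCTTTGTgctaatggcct
Ndufaf4 site, chr4:24888015-24888135: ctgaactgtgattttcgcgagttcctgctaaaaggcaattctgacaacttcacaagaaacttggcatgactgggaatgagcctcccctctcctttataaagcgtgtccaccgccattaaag
Cypt15 site, chrX:39512811-39512931: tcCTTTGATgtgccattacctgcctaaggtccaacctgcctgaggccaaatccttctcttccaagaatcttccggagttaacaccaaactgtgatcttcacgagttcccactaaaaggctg
Vmn2r26 site, chr6:124054476-124054596: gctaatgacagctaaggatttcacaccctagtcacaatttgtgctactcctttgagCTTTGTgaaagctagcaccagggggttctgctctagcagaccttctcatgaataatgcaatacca
Msgn1 site, chr12:11209075-11209195: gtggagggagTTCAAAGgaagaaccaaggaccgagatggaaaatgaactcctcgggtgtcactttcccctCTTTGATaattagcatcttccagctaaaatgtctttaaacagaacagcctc
Eomes site, chr9:118471384-118471504: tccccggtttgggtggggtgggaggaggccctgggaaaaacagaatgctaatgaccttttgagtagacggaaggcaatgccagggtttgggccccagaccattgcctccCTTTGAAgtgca

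Motif content varied among these CEpiLC-only sites. The Ndufaf4 window held neither motif within 100 bp of its summit. The Gpr39 window held a TCF motif within 100 bp, outside the printed bases. The Msgn1 site, just upstream of a master regulator of presomitic mesoderm, held 2 TCF motifs, starting at bases 11 and 71. Among the shared sites, the 3 strongest with either motif in the printed window are given.
Tmem176a site, chr6:48866720-48866840: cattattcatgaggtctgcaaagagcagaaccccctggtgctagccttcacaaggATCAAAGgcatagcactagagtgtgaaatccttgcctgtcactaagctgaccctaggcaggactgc
Naa30 site, chr14:49155662-49155782: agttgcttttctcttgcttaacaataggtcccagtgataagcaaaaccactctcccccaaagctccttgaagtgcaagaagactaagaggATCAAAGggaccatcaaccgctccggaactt
Foxb1 site, chr9:69668847-69668967: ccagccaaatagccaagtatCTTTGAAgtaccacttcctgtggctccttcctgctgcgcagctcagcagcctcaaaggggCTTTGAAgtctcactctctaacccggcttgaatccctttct

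All 3 shared windows held a TCF motif, 2 of them in the Foxb1 window, and none held a SOX motif. The 2 strongest shared sites, near Fam227b and Ybx3, held neither motif and are not printed. The 5 strongest shared sites each had a peak in 58 to 60 of the 60 deposited lists, which cover 5 antibodies and 4 conditions.

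The libraries differed widely in list length before any comparison of position. SOX2-ON lists held 321099, 124700 and 991719 LEF1 peaks, and CEpiLC lists held 4443, 16518 and 20451. LEF1 lists of SOX2-OFF held 403114, 17493 and 326376 peaks, and those of naive ESC 236304, 117834 and 812208. Long lists were thus not particular to SOX2-ON. All SOX2-ON lists were longer than all CEpiLC lists, with a geometric mean 29.8-fold higher. The difference of 1.47 on the log10 scale exceeded the spread between libraries (SD 0.451 in SOX2-ON and 0.359 in CEpiLC, n = 3 each; two-sided exact permutation test p = 0.1, the smallest that 3 against 3 libraries allow). It was 1.24 without SOX2-ON replicate 3, 1.27 without CEpiLC replicate 1 and 1.69 without SOX2-ON replicate 2, and 1.15 over peaks with a fold of at least 5. The files hold no read counts, so read depth is unknown and its part in list length was not tested. CEpiLC replicate 1 had the shortest list, and its 4443rd peak had a −log10 p of 4.72 against 11.3 to 21.9 in the other 5 libraries. The equal-length lists kept 0.448 to 3.56% of the peaks of each SOX2-ON library, and 100%, 26.9% and 21.7% of those of the CEpiLC libraries.

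Peaks over exons of 4 genes, Tfap2a, Tfap2c, Tcf7l1 and Tcf7l2, were looked at separately. Over Tfap2c and Tcf7l1 exons, replicate 1 had the highest LEF1 fold of each condition. The same held for Tfap2a except in CEpiLC, where replicate 1 had 13.4 and replicate 3 had 16.8. Exons of Tcf7l2 reached at most 11.3, in CEpiLC replicate 2. The strongest LEF1 peak of SOX2-ON replicate 1, with a deposited fold of 363.5 (how far the signal at a summit exceeds its local background), lay over exons of Tfap2a, and exons of Tcf7l1 reached 186.4. In the other 5 libraries the highest fold over Tfap2a exons was 31.3, and CEpiLC replicate 1 had a peak with a fold of 55.6 over Tfap2c. Replicate 1 of the SOX2-OFF and naive ESC LEF1 libraries also had high folds over Tfap2a, of 261.6 and 38.9, so high exon peaks recur in replicate 1 of each condition. Of the differential sites, 1 SOX2-ON-only site and 0 CEpiLC-only sites lay over exons of these genes, and without such peaks 268 and 1339 sites were called.

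CEpiLC replicates resembled each other more than SOX2-ON replicates did. The Jaccard index, the shared share of all covered bases, was 0.368 to 0.412 between CEpiLC lists of equal length and 0.0976 to 0.134 between SOX2-ON lists. It was 0.0701 to 0.113 between SOX2-OFF lists and 0.00564 to 0.0809 between naive ESC lists, so low agreement was not particular to SOX2-ON. Pairs of 1 SOX2-ON and 1 CEpiLC list shared 0.0655 to 0.0907, below every pair within either of these conditions. The mean within conditions exceeded that between conditions by 0.173 (one-sided exact permutation test p = 0.1, the smallest possible). The excess was 0.104 without CEpiLC replicate 2, 0.102 without CEpiLC replicate 3, and 0.105 over all deposited peaks. The plot of list lengths and overlaps shows this separation for every pair.

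**Figure D1:**
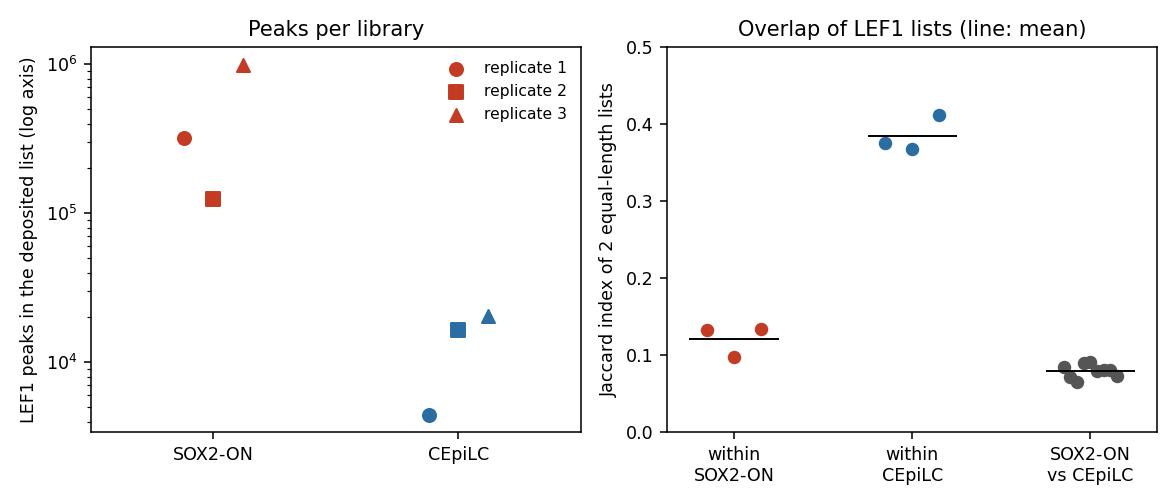
Left, number of LEF1 peaks in each deposited list on a log axis, 3 libraries per condition. Right, Jaccard index of each pair of lists shortened to 4443 peaks, with the mean as a line. SOX2-ON lists are longer, and the 9 pairs across conditions lie below 0.0976, the lowest value within a condition.

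The 6 equal-length lists merged into 16851 sites. Of these, 270 were SOX2-ON-only (1.6% of merged sites), 1343 were CEpiLC-only (7.97%) and 245 were shared (1.45%). Of the other 14993 sites, 8748 had a peak in 1 SOX2-ON list alone and 3193 in 1 CEpiLC list alone, so most were not replicated. The larger number of CEpiLC-only sites goes with the closer agreement of the CEpiLC replicates. Its direction turned with list length: all deposited peaks gave 4216 SOX2-ON-only and 503 CEpiLC-only sites. Without SOX2-ON replicate 1 or 3 the SOX2-ON-only count became 523 or 560.

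The 2 classes cannot be compared in how complete the absence was, because the full lists differ in length. CEpiLC replicate 1 had no peaks beyond its 4443, so a SOX2-ON-only site could have a peak in at most 2 full CEpiLC lists. Of the 270 SOX2-ON-only sites, 215 had no peak in any full CEpiLC list, 47 had one in 1 list and 8 in 2 lists. Of the 1343 CEpiLC-only sites, 251 had no peak in any full SOX2-ON list, 498 had one in 1 list, 417 in 2 and 177 in all 3. Most CEpiLC-only sites were therefore also peaks of lower rank in SOX2-ON cells, in lists that are much longer.

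Among the 8 strongest SOX2-ON-only sites without any CEpiLC peak, the Pax9 site stood out. Pax9 encodes a paired-box transcription factor. The site lay 191897 bp downstream of the Pax9 start, in an intron of Slc25a21, and had LEF1 folds of 76.8, 151.7 and 92.5 in SOX2-ON replicates 1 to 3. It was also the strongest LEF1 peak of the whole replicate 2 list. The Ahr site, 107699 bp upstream of the gene of the aryl hydrocarbon receptor, had folds of 29.4, 45.4 and 56.7. The Rcn1 site, in an intron of a gene for a calcium-binding protein of the endoplasmic reticulum, had folds of 16.3, 38.0 and 44.3. Sites nearest to B3galt2, Plxnd1, Slc25a40 and Cdh8 had median folds of 33.5 to 36.2. All 8 lay outside exons, 6 of them between genes, and the summit was over 1 Mb from the nearest start at B3galt2 (1406310 bp) and Cdh8 (1471320 bp).

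The 8 strongest CEpiLC-only sites without a peak in any full SOX2-ON list had lower folds. This condition left 251 of 1343 CEpiLC-only sites, but 215 of 270 SOX2-ON-only sites, so the 2 sets were not filtered alike. The Gpr39 site, in an intron of the gene of a zinc-sensing receptor, had folds of 10.2, 30.0 and 29.8 in CEpiLC replicates 1 to 3. The Eya2 site, in an intron of a transcriptional co-activator, had folds of 14.97, 20.3 and 22.6. The other 6 had median folds of 20.3 to 23.4 and lay nearest to Ndufaf4, Cypt15, Vmn2r26, Nhsl1, Fam84b and Ugt2b5. Replicate 1 had the lowest fold at all 8 sites, and its highest fold anywhere was 56.9 against 131.3 and 133.8.

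Shared sites reached high folds in every library. The Foxb1 site, 92033 bp downstream of the start of a forkhead gene, had folds of 52.3, 55.5 and 59.2 in SOX2-ON and 54.3, 131.3 and 113.8 in CEpiLC. The Naa30 site had 21.3, 75.6 and 40.3 in SOX2-ON and 44.5, 71.4 and 70.7 in CEpiLC. The ranges of the conditions overlapped at both sites.

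Classes also differed in position relative to genes. CEpiLC-only sites lay within 1000 bp of a protein-coding start in 214 of 1343 cases (15.9%), against 3 of 270 SOX2-ON-only sites (1.11%) and 12 of 245 shared sites (4.9%). The median distance to the nearest start was 20456 bp for CEpiLC-only sites and 70101 bp for SOX2-ON-only sites. Introns held 36.7% of SOX2-ON-only and 35.6% of CEpiLC-only summits. Over whole equal-length lists, the share of peaks within 1000 bp of a start was 3.49%, 3.62% and 3.15% in SOX2-ON replicates 1 to 3 and 13.7%, 13.98% and 14.1% in CEpiLC replicates. The groups did not overlap, and their means differed by −10.5 percentage points (two-sided exact permutation test p = 0.1, n = 3 each). LEF1 peaks of highest rank were thus more often promoter-proximal in CEpiLC in each of the 3 libraries.

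The motif under LEF1 peaks differed between conditions. A TCF motif lay within 100 bp of the summit in 22.96%, 29.6% and 24.2% of the equal-length peaks of SOX2-ON replicates 1 to 3. In CEpiLC replicates it lay there in 60.6%, 60.2% and 63.7%. Windows 5 kb away held the motif in 7.79 to 9.39% of cases, so all 6 libraries were above background, and the conditions differed by −35.9 percentage points (two-sided exact permutation test p = 0.1, adjusted p = 0.125 over 5 motifs). The SOX motif had the opposite order, with 40.5%, 57.3% and 40.9% in SOX2-ON and 31.2%, 30.0% and 27.8% in CEpiLC, against 25.8 to 28.0% in windows 5 kb away. CEpiLC libraries were close to that background, and the difference was 16.6 points (two-sided exact permutation test p = 0.1, adjusted p = 0.125). It was 11.0 without SOX2-ON replicate 2, which had the highest share, and 25.9 with 2000 peaks per library. Base composition moved with this, with a GC content of 43.7 to 46.2% around SOX2-ON summits and 50.9 to 51.1% around CEpiLC summits, and its part was not tested. For comparison, windows of the same length around 41505 annotated starts held the TCF motif in 4.15% and the SOX motif in 15.7% of cases. In replicates 1 to 3, the TCF share was 25.8%, 25.1% and 35.6% in SOX2-OFF and 8.15%, 41.8% and 20.6% in naive ESC. A TCF share below that of CEpiLC was thus not particular to SOX2-ON. The SOX share was 26.4%, 26.6% and 28.7% in SOX2-OFF and 25.9%, 48.7% and 31.4% in naive ESC.

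**Figure D2:**
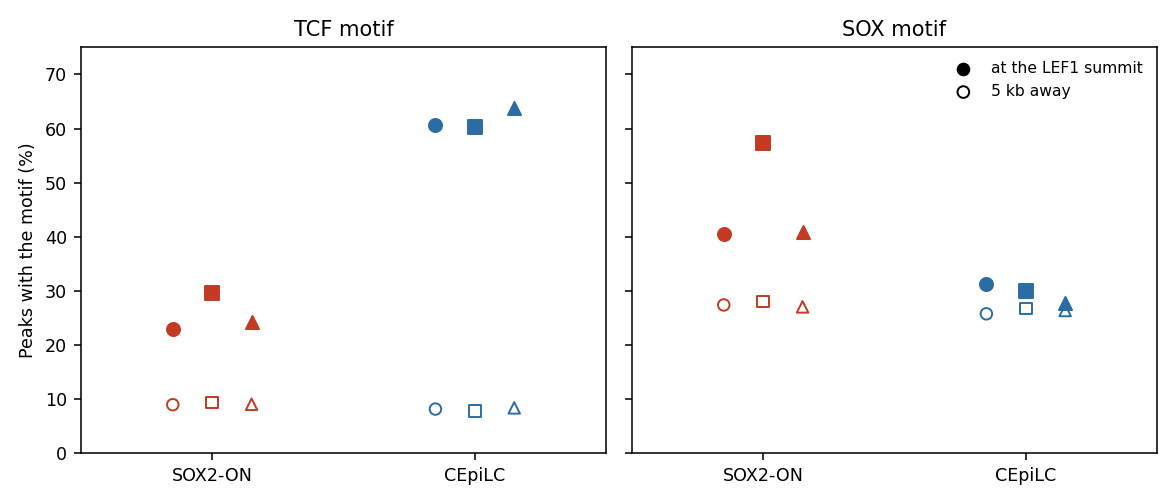
Percent of the 4443 LEF1 peaks of each library with a TCF (left) or SOX (right) motif within 100 bp of the summit (filled), and in windows 5 kb away (open); symbols are replicates. TCF shares are 22.96 to 29.6% in SOX2-ON and 60.2 to 63.7% in CEpiLC, and SOX shares in CEpiLC lie near the open symbols.

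The other 3 motifs showed small differences. The motif of CDX factors, TTTATGG or TTTATTG, lay under 6.66% of SOX2-ON and 6.11% of CEpiLC peaks on average (p = 0.7 by the same exact permutation test). GGTGTG, the core bound by T/BRA, lay under 11.7% and 15.2% (exact permutation p = 0.1, adjusted p = 0.125), with the higher share in the GC-richer CEpiLC windows. The composite OCT-SOX motif lay under 0.255% and 0.12% of peaks.

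Motif content of the site classes followed the same order. These shares describe sites chosen from the same lists, and are given without a test. TCF motifs lay in 96 of 270 SOX2-ON-only sites (35.6%), 935 of 1343 CEpiLC-only sites (69.6%) and 167 of 245 shared sites (68.2%). SOX motifs lay in 202 SOX2-ON-only sites (74.8%), 307 CEpiLC-only sites (22.9%) and 109 shared sites (44.5%). The commonest content of SOX2-ON-only sites was a SOX motif without a TCF motif (47.8%), whereas that of CEpiLC-only sites was a TCF motif without a SOX motif (56.7%). In 27.0% of SOX2-ON-only sites and 28.2% of shared sites both motifs were present. Windows 5 kb from SOX2-ON-only sites held TCF motifs in 13.0% and SOX motifs in 31.5% of cases.

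Both motifs gathered most at the LEF1 summit in the classes that were rich in them, and less in others. In bins of 20 bp, SOX2-ON-only sites had 7.78 TCF matches per 100 sites just after the summit, against 1.11 in the outermost bins. Shared sites had 9.80 SOX matches per 100 sites just before the summit, against 2.04 and 1.63 in the outermost bins. A TCF motif was centred within 20 bp of the summit at 34.2% of CEpiLC-only sites, 30.2% of shared sites and 14.4% of SOX2-ON-only sites. A SOX motif was centred there at 28.5% of SOX2-ON-only sites, 14.7% of shared sites and 6.4% of CEpiLC-only sites. Within 50 bp, a SOX motif was centred at 57.4% of SOX2-ON-only and 12.8% of CEpiLC-only sites.

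**Figure D3:**
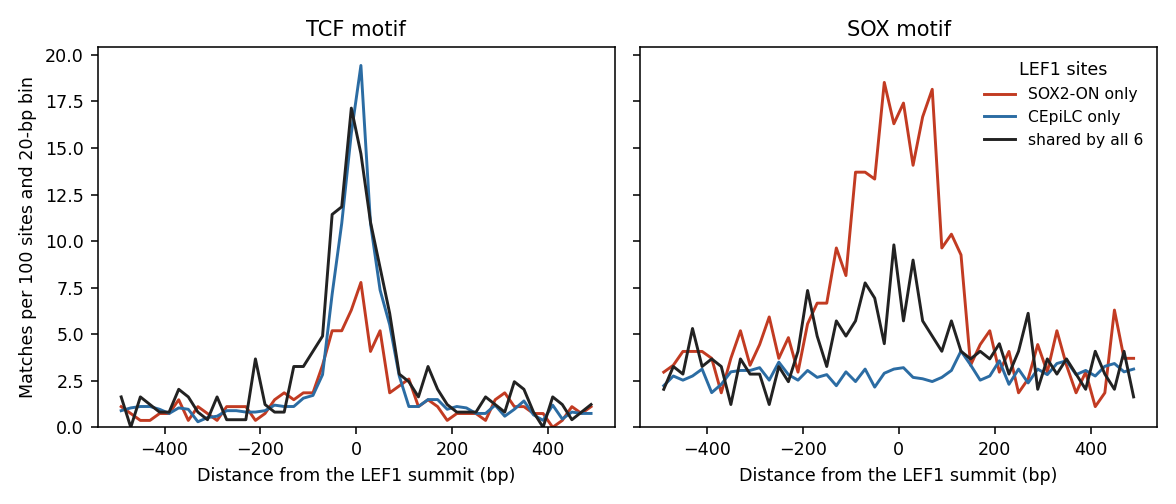
Matches of the TCF (left) and SOX (right) motif per 100 sites in 20-bp bins by distance from the LEF1 summit (bp), for 270 SOX2-ON-only, 1343 CEpiLC-only and 245 shared sites. TCF matches peak at the summit in CEpiLC-only and shared sites and, lower, in SOX2-ON-only sites. SOX matches peak in SOX2-ON-only sites and, lower, in shared sites, while CEpiLC-only sites stay flat.

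SOX2 itself was found at nearly all SOX2-ON-only LEF1 sites. Libraries of other antibodies took no part in choosing the sites, so their overlap was tested. Their lists were shortened to 20000 (SOX2), 3423 (β-catenin), 1628 (TCF7L1) and 4134 (TCF7L2) peaks per library, so shares are comparable within a target and not between targets. SOX2 peaks of SOX2-ON replicates 1 to 3 covered 98.9%, 97.8% and 97.8% of the 270 SOX2-ON-only LEF1 sites, and those of CEpiLC covered 53.3%, 38.9% and 39.3%. At the 1343 CEpiLC-only LEF1 sites the order was reversed, with 17.1%, 10.7% and 17.2% in SOX2-ON and 55.9%, 46.5% and 62.5% in CEpiLC. Shared LEF1 sites were also mostly covered by SOX2 peaks, at 79.6 to 86.9% in SOX2-ON and 89.0 to 98.0% in CEpiLC. At SOX2-ON-only sites the SOX2 summit lay a median of 33 to 38 bp from the LEF1 summit in the SOX2-ON libraries. Where a SOX2 peak was present at a SOX2-ON-only site, its median fold was 21.9 to 26.9 in SOX2-ON and 6.87 to 7.73 in CEpiLC.

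β-catenin moved with LEF1 at both classes. Its peaks in SOX2-ON covered 90.7%, 90.7% and 80.7% of SOX2-ON-only sites, and in CEpiLC 6.3%, 3.33% and 1.48%. At CEpiLC-only sites they covered 17.1%, 15.2% and 20.7% in SOX2-ON and 67.9%, 69.0% and 68.5% in CEpiLC. At the shared sites β-catenin was present in 93.1 to 98.0% in all 6 libraries.

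TCF7L1 and TCF7L2 behaved alike in direction. TCF7L1 peaks of SOX2-ON replicates 1 to 3 covered 28.5%, 67.4% and 67.8% of SOX2-ON-only sites, against 0.741 to 1.85% in CEpiLC. TCF7L1 replicate 1 of SOX2-ON stood apart, also in its full list (56.7% against 100% in the other 2). TCF7L2 covered 25.9 to 31.5% of SOX2-ON-only sites in SOX2-ON and 0 to 0.741% in CEpiLC. Full CEpiLC lists covered more of these sites, with 0.741%, 31.1% and 13.3% for TCF7L1, 0.741%, 25.9% and 20.0% for TCF7L2 and 40.4%, 25.9% and 12.2% for β-catenin. Full SOX2-ON lists covered 61.1 to 80.7% for TCF7L2 and 99.6 to 100% for β-catenin. At CEpiLC-only sites, TCF7L1 covered 2.38 to 6.55% in SOX2-ON and 18.9 to 39.4% in CEpiLC, and TCF7L2 4.39 to 8.34% and 27.5 to 36.1%. Full SOX2-ON lists covered more of the CEpiLC-only sites, with 74.5%, 48% and 77.3% for β-catenin and 8.04%, 51.2% and 85.9% for TCF7L1. For TCF7L2 they covered 24%, 14.7% and 45.6%. Full CEpiLC lists covered 89.1 to 95.2% there for β-catenin, 18.9 to 86.9% for TCF7L1 and 38.7 to 82% for TCF7L2.

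For each library, the percent of SOX2-ON-only sites covered minus the percent of CEpiLC-only sites covered was compared between conditions. In SOX2-ON libraries the mean was 83.2 for SOX2, 69.7 for β-catenin, 49.9 for TCF7L1 and 22.4 for TCF7L2. In CEpiLC libraries the means were −11.1, −64.8, −31.0 and −31.5 in the same order. The SDs were 2.78 to 20.6, and no SOX2-ON library overlapped a CEpiLC library for any of the 4 targets. Each difference, of 94.3, 135, 80.9 and 53.9 percentage points, gave the smallest p that exact permutation allows (two-sided p = 0.1, n = 3 each; adjusted p = 0.1 over 4 targets). With full lists the differences were 78.3 for SOX2, 99.5 for β-catenin, 84.4 for TCF7L1 and 92.9 for TCF7L2. The TCF7L1 and TCF7L2 differences were 52.8 and 29.7 at sites called without CEpiLC replicate 1. The same order held for sites with no LEF1 peak in any full list of the other condition, for all 4 targets. At the 215 such SOX2-ON-only sites, β-catenin covered 77.7 to 90.7% in SOX2-ON and 0.465 to 3.26% in CEpiLC. At the 251 such CEpiLC-only sites it covered 3.59 to 5.58% and 62.9 to 68.5%.

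**Figure D4:**
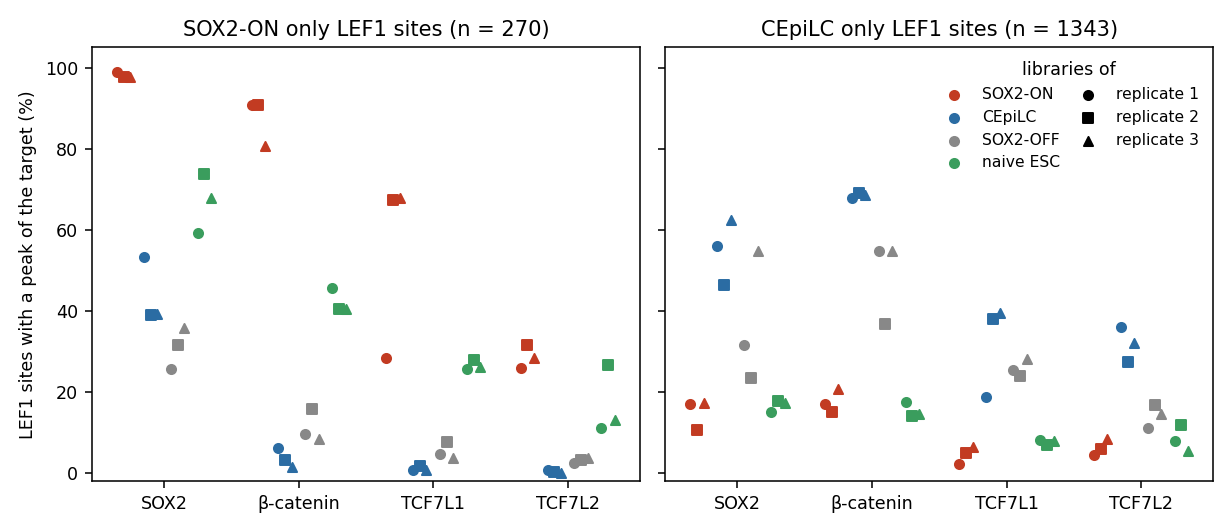
Percent of SOX2-ON-only (left) and CEpiLC-only (right) LEF1 sites that carry a peak of SOX2, β-catenin, TCF7L1 or TCF7L2 in each library, coloured by condition; symbols are replicates and list lengths are equal within a target. At SOX2-ON-only sites β-catenin is at 80.7 to 90.7% in SOX2-ON and at 1.48 to 6.3% in CEpiLC.

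The Pax9 site shows this across antibodies. SOX2 folds there were 90.8, 90.1 and 102.8 in SOX2-ON, and in CEpiLC 4.56 in replicate 1, none in replicate 2 and 9.31 in replicate 3. β-catenin folds were 103.8, 57.9 and 87.6 in SOX2-ON, and no CEpiLC or SOX2-OFF list had a β-catenin peak. The Gpr39 site had β-catenin folds of 29.2, 66.04 and 60.98 in CEpiLC and no β-catenin peak in SOX2-ON. SOX2 was nearly absent there, with 1 peak, of 9.75 in CEpiLC replicate 3, in the 6 SOX2 lists of these conditions.

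LEF1 in the other conditions placed the classes further. In SOX2-OFF, the same Sox2-/- line without doxycycline, LEF1 peaks covered 1.48%, 3.7% and 2.96% of SOX2-ON-only sites and 25.5%, 20.8% and 37.5% of CEpiLC-only sites. In naive ESC they covered 1.48%, 51.1% and 14.4% of SOX2-ON-only and 1.19%, 19.8% and 7.59% of CEpiLC-only sites. Naive ESC libraries ranged widely, and replicate 1 was low at shared sites too (12.7%, against 84.1% and 46.9%). The difference of the 2 shares averaged −25.3 in SOX2-OFF and 12.8 in naive ESC, without overlap between libraries (two-sided exact permutation test p = 0.1, n = 3 each). Shared sites were covered by SOX2-OFF LEF1 peaks in 69.8 to 81.2% of cases.

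Strength of LEF1 was then compared at sites present in both conditions. All 6 full lists held a peak at 1038 merged sites at most 2000 bp wide. The deposited fold was taken on the log2 scale, centred on the median of each library, and tested with limma. At an adjusted p below 0.05, 99 sites were higher in SOX2-ON (9.54% of those tested) and 108 were lower (10.4%), with median differences of 1.52 and −1.44. Without centring, which shifts the median of all sites to −0.54, the split was 43 higher and 263 lower, so directions are relative to the median site. Without CEpiLC replicate 2 the counts were 61 and 65, and without CEpiLC replicate 3 they were 47 and 46.

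The sites that moved differed in sequence and in the other antibodies. SOX motifs lay in 63.6% of the sites that were higher in SOX2-ON and in 18.5% of those that were lower, against 40.8% of all sites tested. TCF motifs lay in 53.5% and 83.3%, against 66.1% of all. SOX2 peaks in SOX2-ON libraries covered 96.0 to 98.0% of the higher sites and 25.0 to 28.7% of the lower sites. It covered 55.1 to 61.7% of all sites tested there. In CEpiLC libraries SOX2 covered 89.9 to 94.9% of the higher sites and 80.6 to 88.9% of the lower sites, against 73.1 to 83.8% of all. TCF7L2 in SOX2-ON covered 45.5 to 57.6% of the higher and 17.6 to 35.2% of the lower sites, against 26.5 to 34.6% of all. In CEpiLC it covered 14.1 to 43.4% and 78.7 to 92.6%, against 39.6 to 56.6% of all. β-catenin in SOX2-ON covered 94.9 to 98.0% of the higher and 57.4 to 75.9% of the lower sites, against 69.7 to 74.3% of all. In CEpiLC β-catenin covered 61.6 to 80.8% and 94.4 to 96.3%, against 76.5 to 81.4% of all. Most sites of lower LEF1 fold in either condition thus still carried a β-catenin peak there.

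Of the 10 largest changes, 5 in each direction, 3 are given in full. The site 53622 bp upstream of Pygo1, a nuclear cofactor of β-catenin, had LEF1 folds of 31.1, 39.8 and 36.2 in SOX2-ON and 5.92, 9.54 and 8.31 in CEpiLC. It was higher in SOX2-ON by 2.71 on the log2 scale (SE 0.32, limma adjusted p = 0.000326). The site 8882 bp downstream of the start of Fgfbp3, an FGF-binding protein, rose by 2.65 (SE 0.43, limma adjusted p = 0.00164). Sites near Zdhhc21, Plcb4 and Cntn6 rose by 3.01, 2.91 and 2.90. In the other direction, the site 8714 bp downstream of the start of Acvr1b, an activin receptor, had folds of 5.99, 5.04 and 2.75 in SOX2-ON and 29.5, 38.3 and 29.1 in CEpiLC. It fell by 2.36 (SE 0.40, limma adjusted p = 0.00182), and its window held a SOX motif without a TCF motif. Sites near Bdh1, Gucy1a2, Cxxc5 and Cpa6 were lower in SOX2-ON, with differences of −2.66, −2.43, −2.39 and −2.35. None of these 10 changed its call or direction without centring, under quantile normalization or without any one library.

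LEF1 sites in the loci of 81 genes in 5 lists, each gene with 10 kb upstream, were then counted. Of 21938 protein-coding loci, 0.565% held a SOX2-ON-only site and 3.64% a CEpiLC-only site. Among the 81 listed loci, 3 held a SOX2-ON-only and 20 a CEpiLC-only site. With full lists these counts were 12 and 10, against 9.09% and 1.53% of all loci.

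Of 20 genes of the caudal epiblast and primitive streak, 8 held a CEpiLC-only site and 1 a SOX2-ON-only site. At the Msgn1 site, 163 bp upstream of the start, CEpiLC folds were 16.1, 13.4 and 40.1, with no peak in any SOX2-ON list. At Tbx6, a T-box gene of paraxial mesoderm, an exonic site had folds of 9.86, 23.4 and 23.6 in CEpiLC and a peak of 6.38 in SOX2-ON replicate 3 alone. At Hes7, a gene of the segmentation clock, a site 2345 bp upstream had 10.99, 17.7 and 21.97 in CEpiLC, and 3.56 and 4.78 in SOX2-ON replicates 1 and 3. Meis3, a homeobox gene, had 15.9, 22.7 and 11.0 at a site 845 bp upstream and no SOX2-ON peak. Eomes, Cdx2, Evx1 and Wnt8a, regulators of the streak and posterior body, held the other CEpiLC-only sites. The Evx1 site had a peak in all 3 full SOX2-ON lists, with folds of 6.14, 4.515 and 4.97 against 5.52, 8.54 and 8.07 in CEpiLC. A Cdx2 site 371 bp upstream of the start likewise had 5.35, 5.84 and 2.70 against 5.26, 7.48 and 9.46. Folds of the conditions overlapped at both. With full lists, 5 of the 20 loci held a CEpiLC-only and 3 a SOX2-ON-only site. Of loci without a differential site, T, the brachyury gene, had a peak in 3 of 3 equal-length CEpiLC lists and 1 of 3 SOX2-ON lists, and Cdx4 in 3 and 2.

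Cdx1, Cdx2, Evx1 and Wnt5b held shared sites. At Cdx2, a caudal homeobox gene, the intronic shared site had folds of 26.8, 17.5 and 34.6 in SOX2-ON and 9.78, 18.3 and 16.0 in CEpiLC, while a site 8485 bp upstream was CEpiLC-only with 10.04, 10.5 and 8.33 and a peak of 7.70 in the full list of SOX2-ON replicate 3. Both kinds of site thus lay in this locus. At the Cdx1 start, LEF1 folds were 17.1, 18.8 and 18.2 in SOX2-ON and 30.1, 34.2 and 36.5 in CEpiLC, without overlap. Wnt5b, a WNT ligand gene, held the SOX2-ON-only site of this list, with folds of 12.4, 9.32 and 10.8, and peaks of 6.74 and 6.54 in full lists of CEpiLC replicates 2 and 3.

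Hox genes, which set position along the trunk, held LEF1 sites in CEpiLC. Of 12 loci, 4 held a CEpiLC-only site (Hoxb1, Hoxb2, Hoxb4 and Hoxb9) and 0 held a SOX2-ON-only or shared site, and these 4 lie in 1 cluster, Hoxb. At Hoxb1, an early anterior member, the CEpiLC-only site lay 2821 bp downstream of the start. It had folds of 5.47, 7.79 and 8.56 in CEpiLC and, in full lists, 5.84 in SOX2-ON replicate 3. The highest folds in the locus lay outside that site. They were 24.2, 43.1 and 32.8 in the equal-length CEpiLC lists, and 7.88 in that of SOX2-ON replicate 2. With full lists the Hoxb1, Hoxb9 and Hoxd1 loci each held a site shared by all 6 libraries, and 2 loci, Hoxb1 and Hoxb4, held a CEpiLC-only site. The Hoxb9 site had full-list folds of 3.56, 5.30 and 5.46 in SOX2-ON and 12.9, 13.7 and 10.96 in CEpiLC. The Hoxb4 intronic site had folds of 19.5, 20.7 and 15.9 in CEpiLC and, in full lists, 6.46 and 2.73 in SOX2-ON replicates 1 and 3. Hoxb8 and Hoxd1 also had a peak in 3 of 3 equal-length CEpiLC lists, against 1 and 2 SOX2-ON lists.

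Several WNT pathway genes were bound in both conditions. Of 16 loci, 7 had peaks in 3 of 3 equal-length SOX2-ON lists and 11 in 3 of 3 CEpiLC lists, against 2.38% and 5.99% of all protein-coding loci. Axin2, a negative feedback gene of the pathway, had folds of 13.1, 12.3 and 13.0 in SOX2-ON and 14.2, 13.7 and 13.1 in CEpiLC at its strongest intronic site by CEpiLC fold. The Sp5 promoter site, at a direct WNT target, had 23.04, 9.39 and 18.8 in SOX2-ON and 29.9, 35.04 and 22.03 in CEpiLC. The Sp5 ranges overlapped, and at Axin2 the highest SOX2-ON fold, 13.05, lay just below the lowest of CEpiLC, 13.13. At Myc, a proto-oncogene, the shared site 6267 bp upstream had 20.7, 29.3 and 12.6 in SOX2-ON and 5.68, 8.35 and 8.63 in CEpiLC, without overlap. Znrf3 and Lef1 also had a peak in all 6 lists. Additional CEpiLC-only sites lay at Axin2, Sp5, Znrf3, Notum, Rnf43 and Tcf7, and no locus of this list held a SOX2-ON-only site. The Notum site, 61 bp upstream of the start, and 1 of 2 such sites at Znrf3 had no peak in any full SOX2-ON list. The Axin2 site and both Rnf43 sites had a peak in all 3 full SOX2-ON lists. The stronger Rnf43 site had folds of 6.40, 6.64 and 9.14 in SOX2-ON and 7.67, 19.2 and 14.8 in CEpiLC, which overlap. With full lists, 3 loci of the list held a SOX2-ON-only and 3 a CEpiLC-only site. Ccnd1, Dkk1 and Tcf7l2 had peaks in 3 of 3 CEpiLC lists, and Nkd1 and Tcf7l1 in 3 of 3 SOX2-ON lists, with peaks in 1 or 2 lists of the other condition. At Tcf7l1 the highest folds of SOX2-ON replicates 1 and 3 (186.4 and 17.8) and of CEpiLC replicate 1 (37.8) were exon peaks.

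Pluripotency and neural loci held few differential sites. Of 21 pluripotency loci, 1 held a SOX2-ON-only site, Klf2, a gene of naive pluripotency, with folds of 15.9, 30.1 and 18.7 at 2804 bp upstream and no CEpiLC peak. The CEpiLC-only site of this list, 5126 bp upstream of Prdm14, had 10.7, 10.0 and 9.93 and a peak of 6.87 in SOX2-ON replicate 2. Of 12 primed epiblast and neural loci, Six3, a forebrain homeobox gene, held a SOX2-ON-only site 7743 bp upstream with folds of 10.3, 13.3 and 14.9 and no CEpiLC peak. Sox11 held a CEpiLC-only site with 9.66, 13.9 and 23.3, and peaks of 6.41 and 4.95 in full lists of SOX2-ON replicates 2 and 3.

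**Figure D5:**
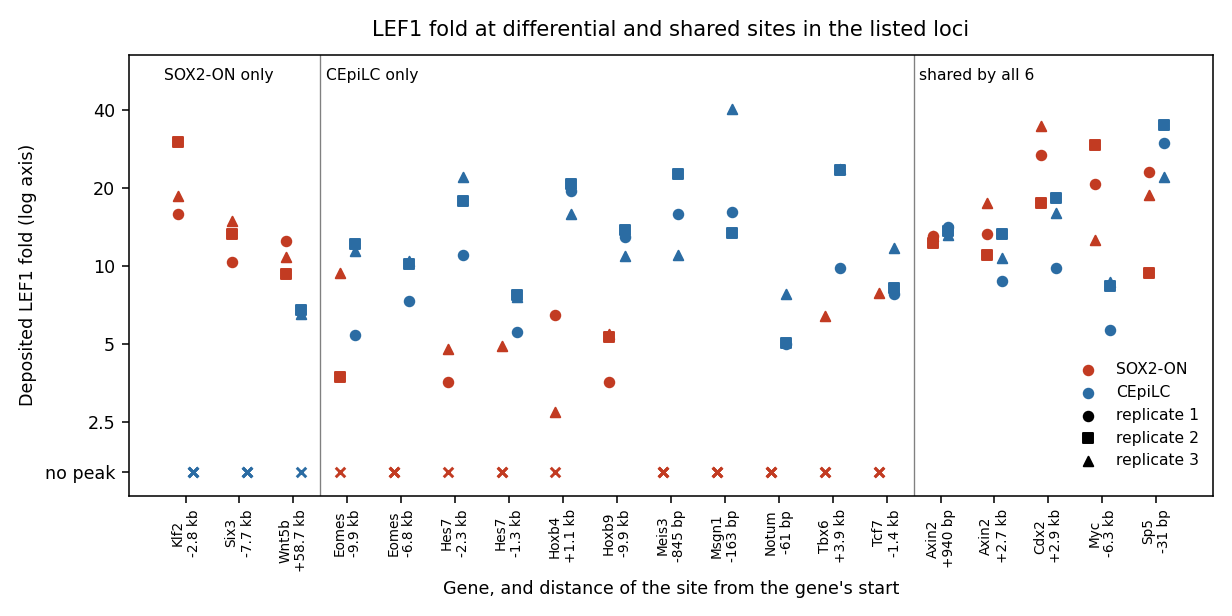
Deposited LEF1 fold (log axis) in each library at all SOX2-ON-only and at selected CEpiLC-only and shared sites of the listed loci, labelled by gene and distance from the gene's start; crosses mark libraries whose full list has no peak there. Klf2 and Six3 have peaks in SOX2-ON libraries and none in CEpiLC, and Msgn1, Meis3 and Notum the reverse.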

How the data were processed

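ChIP-seq peak lists of 6 LEF1 libraries (3 SOX2-ON, 3 CEpiLC), and 54 further lists for comparison, were analysed. Per the study's methods, the authors aligned single-end 76 bp reads to mm10 with BWA and called narrow peaks per library with MACS2 through nf-core/chipseq, at q below 0.05. Which input served which library is not stated in the sources read. Each deposited list gave a score (10 times −log10 q), a fold (a ratio of summit signal over local background) and −log10 p and q values.

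Libraries were cut to their 4443 peaks of highest −log10 p, and peaks sharing 1 bp were merged. Sequences came from GRCm38 (RefSeq) and gene starts from the GENCODE basic annotation. Groups were compared by exact permutation over libraries, and folds at shared sites with limma 3.58.1 (R 4.3.3), checked on simulated data, with Benjamini-Hochberg adjustment. Peak calling separately per library at unknown depth makes presence or absence depend on depth.

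Named sites were the 8 strongest per direction without a peak in the other condition's full lists, not on chromosome 18 nor over exons of Tfap2a, Tfap2c, Tcf7l1 or Tcf7l2, the 5 strongest shared sites, the 5 largest limma changes per direction, and listed loci with a differential site or a peak in 3 of 3 lists. The letters of the OCT-SOX motif and the 4 locus windows shown as sequence were chosen after the data were seen. Of the 8 named SOX2-ON-only sites, 1 is not reported here by name. The labels call the samples biological replicates. The comparison, gene lists and rules were chosen with earlier results of these data known.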

Additional observations from a re-analysis of the deposited data

How the results depend on the processing

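List length and its settings moved the counts of differential sites most. SOX2-ON-only sites numbered 270, and CEpiLC-only sites 1343. They became 661 CEpiLC-only sites with 2000 peaks per library, 251 when absence was required in full SOX2-ON lists, and 4216 and 503 with all deposited peaks, which reverses their order. Without CEpiLC replicate 1 and with 16518 peaks per library, a setting added after seeing the data, they were 415 and 4279. The shortest of the 12 LEF1 lists is also the shortest of the 6, so that setting, and a longer limit capped by the shortest list, gave the values of the report. Leaving out 1 library gave 277 to 560 SOX2-ON-only and 1460 to 1812 CEpiLC-only sites. All 16 named differential sites were called the same way without any one library, which the rule for these sites all but fixes in advance. With 2000 peaks per library, 14 of the 16 were called the same way. limma called 99 higher and 108 lower sites, 43 and 263 without centring, and 49 and 48 of 244 sites when all 6 equal-length lists had to hold a peak. Without 1 library the counts were 47 to 107 and 46 to 114. Listed loci with a differential site numbered 3 SOX2-ON-only and 20 CEpiLC-only, 42 CEpiLC-only with 50 kb on both sides (where 10.7% of all loci hold one, against 3.64%), and 12 and 10 with full lists. The difference in the CDX motif, 0.548 points, reversed without CEpiLC replicate 3 (−0.281; −0.281 to 1.33 over libraries left out). Without CEpiLC replicate 1 and with 16518 peaks, the within-condition excess in overlap was 0.059, the SOX motif difference 8.36 and the OCT-SOX difference 0.0111 points, the last being 0.135 in the report and 0.06 without SOX2-ON replicate 2. The causes of these changes were not tested. The other differences kept their sign under every setting tried, and none could pass 0.05 with 3 against 3 libraries.

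With the replicate number as a block, limma called 132 higher and 145 lower sites. Deviations of same-numbered libraries correlated over sites at r = 0.119, 0.173 and 0.0994, so the rule that every pair exceed 0.1 was not met, although each library correlated best with its own number. Read depth is unknown, and absence of a peak in a short list is not absence of binding.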

Other observations

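Some of the strongest sites shared sequence with each other. Within 100 bp of their summits, the CEpiLC-only sites near Cypt15 and Fam84b shared 50 words of 12 bases, those near Cypt15 and Nhsl1 shared 32, and those near Nhsl1 and Fam84b shared 33. The CEpiLC-only Vmn2r26 site shared 37 such words with the shared site near Tmem176a. The shared sites near Fam227b and Ybx3 shared 13. How reads at such sites aligned was not tested. Over whole classes, summits lay in bases that the RefSeq file marks as repeats at 17.9% of CEpiLC-only, 25.6% of SOX2-ON-only and 19.2% of shared sites. The masked share of the windows was 19.6%, 24.1% and 20.6%, below the 29.4%, 30.4% and 28.5% found 5 kb away.

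Shared LEF1 sites recurred across the series. Of the 245, 25 had a peak in all 60 deposited lists and 165 in at least 55, whereas 0 of 270 SOX2-ON-only and 19 of 1343 CEpiLC-only sites reached 55.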
